A study of Mus musculus with 18 samples.

Results

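Crypt-derived mouse intestinal organoids in collagen differed widely between cWRNE and ENRW medium. The comparison set 3 COL_cWRNE cultures, kept in medium with 25% cWRNE, against 3 COL_Control cultures, kept in ENRW medium, which makes 6 of the 18 libraries of the series. The libraries were taken by their labels and no measured value entered the choice. Both groups were C57BL/6J wild-type small intestinal epithelium, grown from crypts in domes of collagen type I without 5-fluorouracil, and RNA was taken on day 6. The letters in such names usually stand for Wnt, R-spondin, Noggin and epidermal growth factor, with c for conditioned medium. The composition of both media is not given in the sources used here.

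The groups served different experiments of the study. COL_Control was the untreated arm of the 5-fluorouracil experiment, and COL_cWRNE was grown to be set against VIL, organoids raised from villi in collagen with the same 25% cWRNE. Medium and experiment therefore cannot be told apart in this comparison. MG_Control, crypt organoids in Matrigel with ENR medium, gives a level for the more usual crypt culture. The design text states 3 biological replicates per condition for the 5-fluorouracil experiment. No source states separate mice for COL_cWRNE, so the p-values measure the spread between cultures. Unless an alternative is named, that spread was estimated from all 18 libraries of the series. It therefore includes the spread of the VIL, Matrigel and 5-fluorouracil cultures.

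Organoids in a soft basement-membrane gel keep a crypt with stem and Paneth cells and a villus-like part with enterocytes and secretory cells. Wnt and R-spondin hold up the stem cell state through beta-catenin, Noggin blocks bone morphogenetic protein signals, and epidermal growth factor drives division. Collagen type I binds integrins and is known to bring out an epithelial state that resembles fetal gut and injured, repairing gut, with Ly6a (Sca-1), Clu and annexins and with active YAP.

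The COL_cWRNE libraries held 30322104, 33181414 and 29787454 estimated counts and the COL_Control libraries 28828068, 26430020 and 25827175. Mitochondrial genes took 0.616% to 0.705% of the counts in COL_cWRNE and 0.754% to 0.921% in COL_Control. Replicate 2 of each group carried Y-linked counts (175 counts per 1000000, CPM, in COL_cWRNE and 140 CPM in COL_Control) and no Xist. COL_Control replicate 3 stood apart, with 26.7 CPM of Y-linked RNA beside 177 CPM of Xist. Both groups were epithelial by their markers. Epcam, an epithelial adhesion protein, stood at 1860, 1810 and 1870 CPM in COL_cWRNE and 1580, 1740 and 1930 CPM in COL_Control. Ptprc, the pan-leukocyte gene, was at 0 in all 6 libraries.

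Of 17708 genes tested with edgeR's quasi-likelihood test, 3184 (18.0%) passed a Benjamini-Hochberg adjusted p of 0.05 and are spoken of as called. Of these, 2325 (13.1% of the genes tested) were higher in COL_cWRNE and 859 (4.85%) were lower. A further requirement of 1 or more in the size of the log2 fold change left 1543 (8.71%). The 3 values of one group did not overlap the 3 of the other in 7131 genes (40.3%). The median log2 fold change over all genes was 0.00. The split rests on the scaling: with plain library totals 1624 were higher and 1966 lower, and the median over all genes moved to -0.16. Without COL_cWRNE replicate 1 the calls numbered 2110, without COL_cWRNE replicate 2 1908, without COL_Control replicate 2 2113 and without COL_Control replicate 3 1907. The plot of gene lists gives these shares for every list of at least 10 tested members. Gene lists below are described by the members called, to be read against 13.1% and 4.85%, and by their median log2 fold change. Every rise, fall or value written with ± is a log2 fold change, COL_cWRNE over COL_Control, with its SE, and every adjusted p is from this edgeR fit unless an alternative is named.

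**Figure D1:**
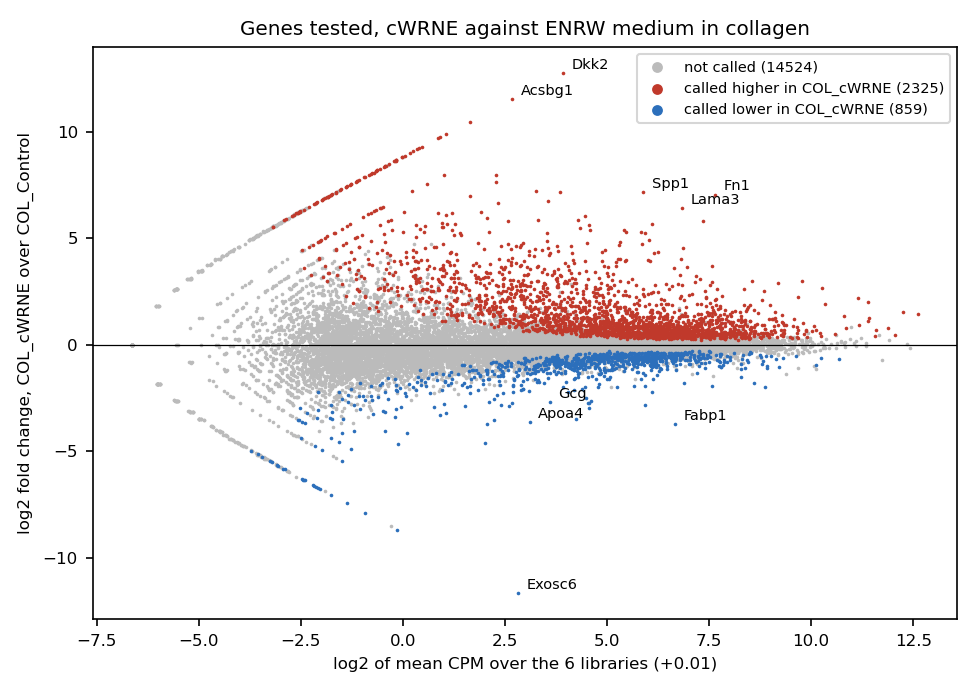
Log2 fold change of each of the 17708 genes tested (vertical axis, COL_cWRNE over COL_Control) against the log2 of its mean CPM plus 0.01 over the 6 libraries (horizontal axis), with the 2325 genes called higher in red and the 859 called lower in blue. The straight outer streaks at the left are genes listed at 0 in one group, whose fitted folds have no fixed size.

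**Figure D2:**
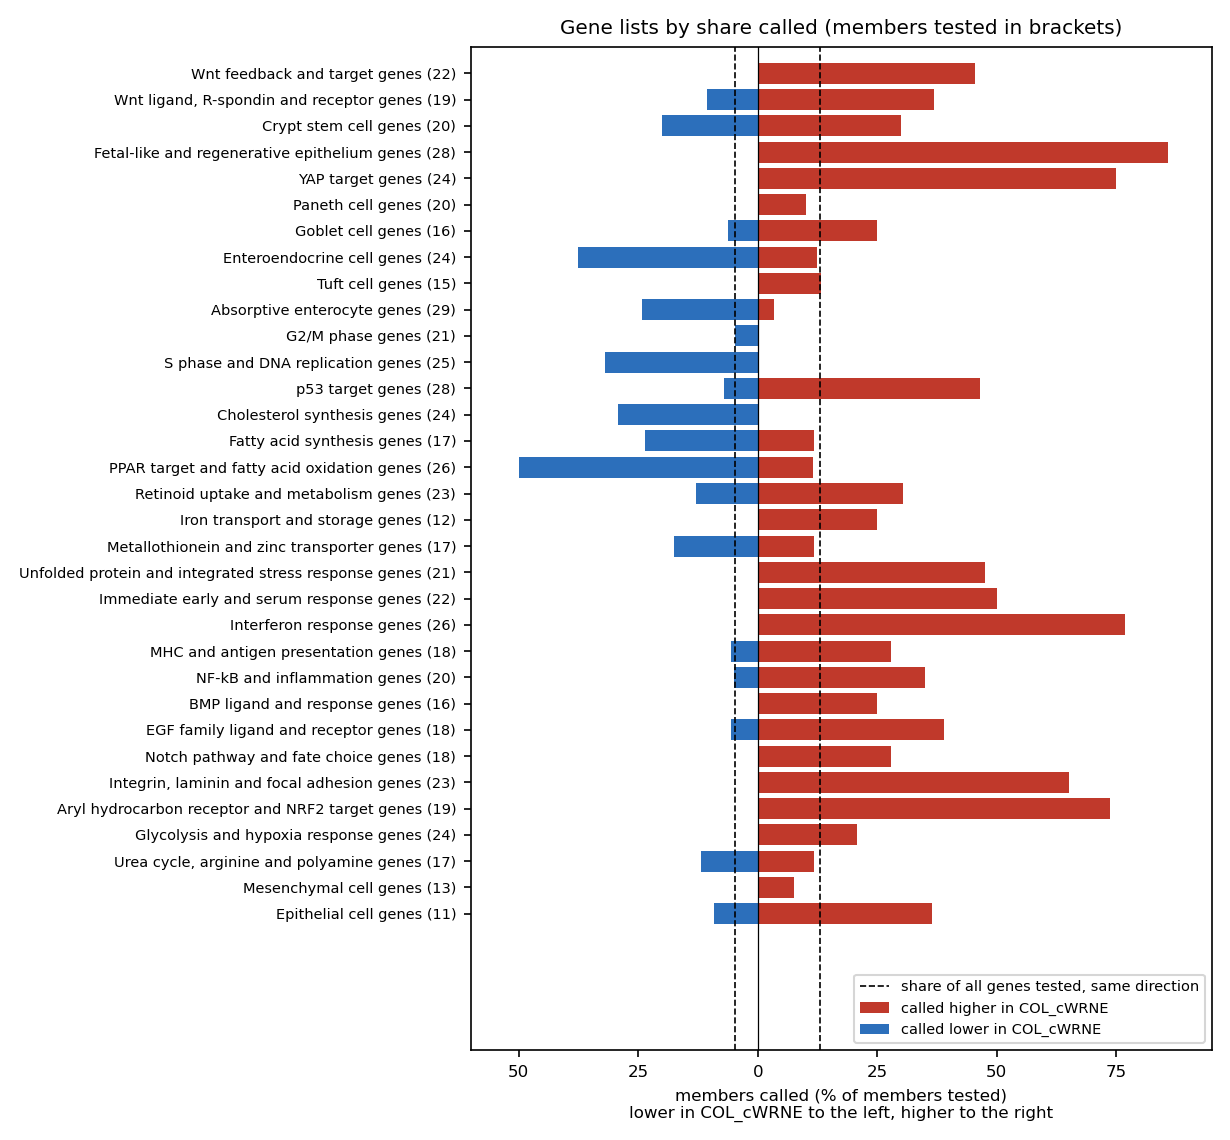
Percent of the tested members of each gene list (rows, number tested in brackets) called higher (red, to the right) and called lower (blue, to the left) in COL_cWRNE, with dashed lines at the share of all genes in the same direction, 13.1% and 4.85%. Fetal-like, interferon, YAP and detoxification genes reach far right of the line, and PPAR target and enteroendocrine genes far left.

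Several of the 12 genes with the largest rise encode proteins of the matrix or the cell surface. Fn1, which encodes fibronectin, was at 238, 681 and 269 CPM in COL_cWRNE, against 4.30, 2.94 and 1.63 CPM in COL_Control. Its log2 fold change was 7.05 ± 0.87 (adjusted p = 4.97e-05). Lama3, the alpha chain of laminin-332, was at 200, 267 and 213 CPM in COL_cWRNE and 1.69, 5.38 and 0.797 CPM in COL_Control (6.43 ± 0.74, adjusted p = 3.13e-05). Both genes were near silent in each ENRW library, and the groups did not overlap. Spp1, which encodes osteopontin, a secreted integrin ligand, was at 90.4, 192 and 70.8 CPM in COL_cWRNE and under 1 CPM in each COL_Control library, at 0.828, 0.948 and 0.652 CPM (7.17 ± 0.76, adjusted p = 3.10e-05). Sdc3, a heparan sulfate proteoglycan of the cell surface, was at 22.9, 37.7 and 25.2 CPM in COL_cWRNE and 0, 0.0339 and 0.580 CPM in COL_Control (7.16 ± 1.04). The matrix proteins Fbln2 (fibulin 2) and Tnc (tenascin C) were also among the 12 genes with the largest rise. Tnc was at 9.18, 20.5 and 5.26 CPM in COL_cWRNE and 0.573, 0 and 0 CPM in COL_Control, and lost its call under DESeq2, with limma on log2(TPM + 1), where TPM is transcripts per 1000000, and without COL_Control replicate 2 or replicate 3.

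Among integrin, laminin and focal adhesion genes, 15 of 23 tested members were called higher (65.2%) and 0 lower, with a median of 1.01. Itgb6, the beta chain of an integrin that activates TGF-beta, was at 348, 451 and 322 CPM in COL_cWRNE and 99.9, 69.3 and 60.1 CPM in COL_Control (2.29 ± 0.24, adjusted p = 1.96e-05). Lamb3, the beta chain of laminin-332, rose by 1.67 ± 0.25. Per length, Lama3 and Lamb3 averaged 51.3 and 175 TPM in COL_cWRNE, and 0.674 and 58.4 TPM in COL_Control, so the alpha chain was the scarcer of the pair in both media. Vcl, the focal adhesion protein vinculin, rose by 1.13 ± 0.20. With limma on log2(TPM + 1) the list count fell to 9.

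The list of fetal-like and regenerative epithelium genes had the highest share of calls: 24 of 28 members were higher (85.7%) and 0 lower, with a median of 1.74. Both groups were grown in collagen, so this rise was seen between cultures in the same matrix. Ly6a, the surface protein Sca-1, was at 2340, 1990 and 1780 CPM in COL_cWRNE and 801, 389 and 441 CPM in COL_Control (1.91 ± 0.39, adjusted p = 0.00278). In MG_Control it was at 21.6, 19.9 and 9.60 CPM, so the ENRW collagen cultures lay between. Clu, a secreted chaperone that marks revival stem cells in injured gut, was at 4140, 5800 and 2940 CPM in COL_cWRNE and 1540, 954 and 718 CPM in COL_Control (2.00 ± 0.32, adjusted p = 0.00046). Anxa1, a phospholipid-binding annexin, rose by 2.25 ± 0.36.

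Anxa8, another annexin, was low in ENRW, at 116, 135 and 83.3 CPM in COL_cWRNE, against 3.44, 3.18 and 1.70 CPM in COL_Control (5.32 ± 0.42, adjusted p = 4.69e-06). In MG_Control it stayed under 1 CPM, as the plot of single genes by group shows. The keratins Krt7 and Krt19, simple epithelial filaments prominent in ductal and fetal epithelium, rose by 2.2 ± 0.26 and 1.55 ± 0.16. Their partners Krt8 and Krt18 rose by 1.45 ± 0.16 and 1.28 ± 0.18. Krt19 reached 7520, 8350 and 5890 CPM in COL_cWRNE, against 2970, 2170 and 2270 CPM in COL_Control. In all 28 genes but Cldn7 the log2 fold change was above 0, and Cldn7 had -0.33 ± 0.13 (adjusted p = 0.083, and 0.00668 with library totals). The count stayed between 23 and 25 when any one of the 6 libraries was left out.

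**Figure D3:**
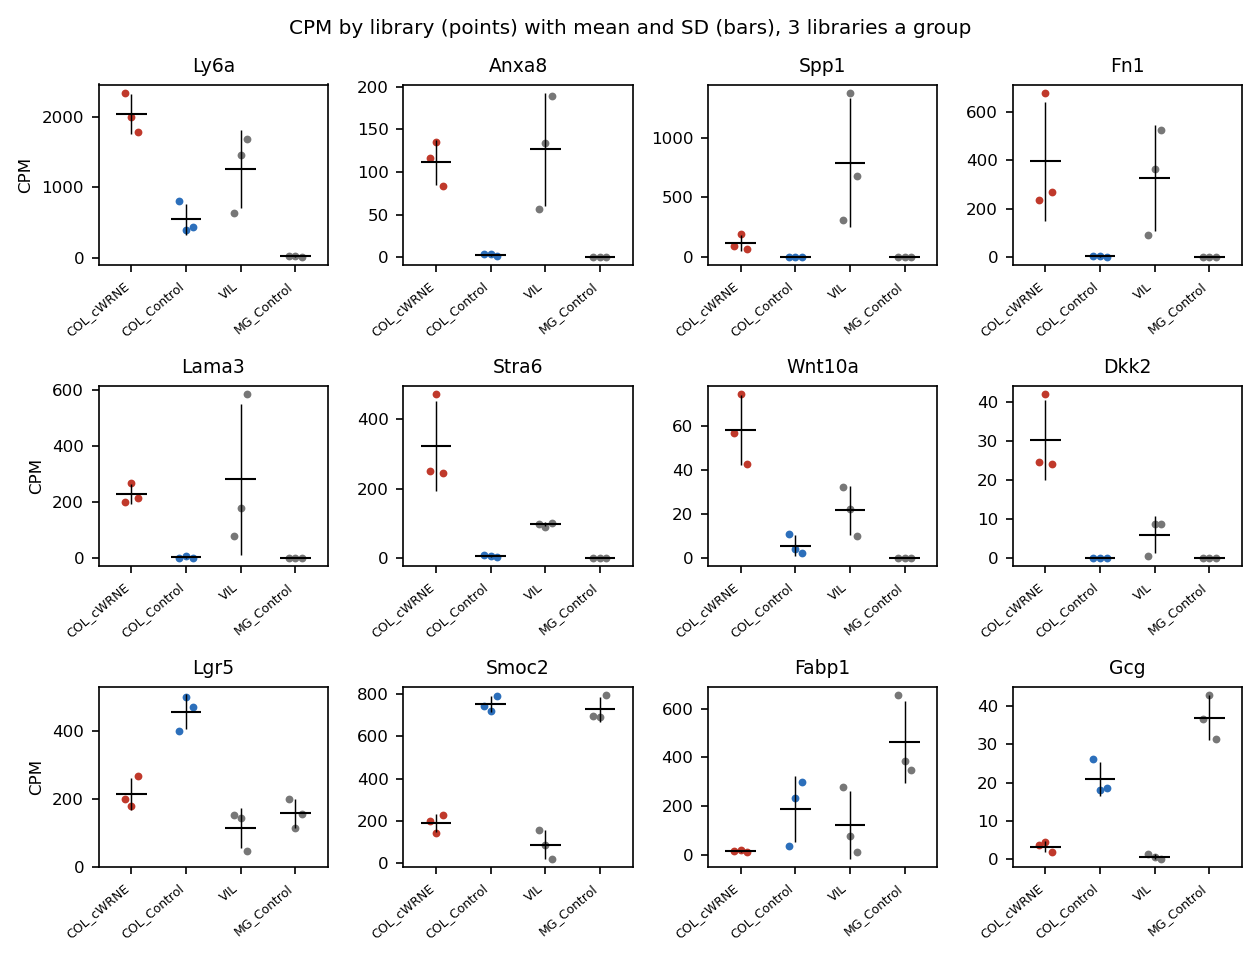
CPM (vertical axis, linear, scaled per gene) of 12 genes in the 3 libraries of COL_cWRNE (red), COL_Control (blue), VIL and MG_Control (grey), with the mean as a horizontal bar and the SD as a vertical line. Ly6a through Dkk2 are higher and Lgr5 through Gcg are lower in COL_cWRNE than in COL_Control, and the VIL libraries of most genes are widely spread.

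YAP is a transcription co-factor that moves to the nucleus when cells spread on stiff or adhesive matrix. Of 24 tested YAP target genes, 18 were higher (75%) and 0 lower, with a median of 1.54. Ccn2, a secreted matricellular protein used as a YAP readout, was at 831, 919 and 615 CPM in COL_cWRNE and 218, 102 and 91.4 CPM in COL_Control (2.52 ± 0.46, adjusted p = 0.00132). Its relative Ccn1 rose by 1.57 ± 0.31. F3, tissue factor, the starter of blood clotting, was at 1710, 1660 and 1320 CPM in COL_cWRNE and 264, 160 and 166 CPM in COL_Control (2.99 ± 0.41). Ajuba, a LIM protein that restrains the YAP inhibitor kinases, rose by 1.5 ± 0.18. The proliferation gene Birc5, also in this list, had a log2 fold change of -0.69 ± 0.32 (adjusted p = 0.151, and 0.00422 on only the 6 libraries). Leaving out any one library left 12 to 17 called.

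Immediate early and serum response genes, which answer growth factor and actin signals within minutes to hours, had 11 of 22 members higher (50.0%), 0 lower and a median of 0.96. Fos rose to 871, 713 and 757 CPM in COL_cWRNE, against 403, 348 and 219 CPM in COL_Control (1.27 ± 0.22, adjusted p = 0.000776). Dusp1, a phosphatase that ends MAP kinase signals, rose by 1.74 ± 0.34 and the actin-filament gene Tpm1 by 0.92 ± 0.15. Without COL_Control replicate 3 the list count was 5, and without COL_Control replicate 2 it was 7.

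Wnt genes were described as ligands and receptors, feedback genes and stem cell genes. Among ligands, Wnt10a was at 56.8, 74.5 and 42.7 CPM in COL_cWRNE and 11.0, 3.86 and 2.03 CPM in COL_Control (3.36 ± 0.57, adjusted p = 0.000987). Wnt7b rose by 2.35 ± 0.56, a call that ended without COL_cWRNE replicate 2 or COL_Control replicate 3, and Wnt6, at a few CPM, by 2.51 ± 0.57. Wls, which carries Wnt proteins to the cell surface, was at 194, 244 and 182 CPM in COL_cWRNE and 115, 108 and 110 CPM in COL_Control (0.90 ± 0.18). Wnt3, the ligand that Paneth cells supply in crypts, was at 9.46, 5.20 and 7.68 CPM in COL_cWRNE and 9.39, 9.51 and 12.0 CPM in COL_Control, and the groups overlapped (-0.47 ± 0.53, adjusted p = 0.592). Of 19 tested ligand, R-spondin and receptor genes 7 were higher (36.8%) and 2 lower, Lgr5 and the receptor gene Fzd5. The higher count was 3 without COL_cWRNE replicate 2 and 4 without COL_Control replicate 2, and no member was called lower without COL_cWRNE replicate 2, COL_Control replicate 1 or COL_Control replicate 2. Wnt10a and Wnt7b were at 0 in all 3 MG_Control libraries.

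Among Wnt feedback and target genes, 10 of 22 were higher (45.5%) and 0 lower, with a median of 0.56. Dkk2, a secreted antagonist of the Wnt co-receptors, had the largest rise of the whole comparison among genes of at least 10 CPM. It was at 24.6, 42.2 and 24.1 CPM in COL_cWRNE and had no count in any COL_Control library, so it was at least 905-fold higher, taking 3 counts over the 3 libraries as the floor. Nkd1, an intracellular feedback inhibitor, was at 18.5, 14.9 and 25.5 CPM in COL_cWRNE and 6.62, 5.89 and 3.30 CPM in COL_Control (1.90 ± 0.38). Ccnd1 (cyclin D1) rose by 1.37 ± 0.19 and Cd44, a hyaluronan receptor, by 1.12 ± 0.22. Axin2, the standard beta-catenin readout, rose little, to 47.0, 54.5 and 58.9 CPM in COL_cWRNE, against 39.4, 39.5 and 37.4 CPM in COL_Control (0.46 ± 0.14, adjusted p = 0.0272). Its call ended with library totals (adjusted p = 0.163), with limma on TPM, without the filter on low counts, and without any one of the 6 libraries other than COL_cWRNE replicate 1. Notum, a secreted enzyme that inactivates Wnt, stayed near 1 CPM or below in both groups and was not called. The list count fell to 6 with library totals, 6 without COL_cWRNE replicate 2, 6 without COL_Control replicate 2 and 5 without COL_Control replicate 3.

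Crypt stem cell genes went both ways, with 6 of 20 higher (30.0%), 4 lower (20.0%) and a median of 0.10 that changed sign with library totals (-0.07). Lgr5, the R-spondin receptor that marks crypt base stem cells, was at 199, 179 and 267 CPM in COL_cWRNE and 399, 499 and 470 CPM in COL_Control (-1.08 ± 0.35, adjusted p = 0.0401). The groups did not overlap. The call ended without COL_cWRNE replicate 1 (adjusted p = 0.114), COL_cWRNE replicate 2 (0.139), COL_Control replicate 1 (0.0587), COL_Control replicate 2 (0.111) or COL_Control replicate 3 (0.0947). Smoc2, a matricellular protein of the same cells, fell more, to 201, 142 and 227 CPM in COL_cWRNE, against 746, 722 and 793 CPM in COL_Control (-1.99 ± 0.42, adjusted p = 0.00342). Pdgfa, a platelet-derived growth factor gene in this list, fell by 0.83 on the log2 scale (SE 0.12).

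Against these stood Ascl2, the Wnt-driven stem cell transcription factor, and Tnfrsf19, a TNF receptor family member expressed in crypt base cells. Ascl2 was at 54.6, 41.2 and 60.0 CPM in COL_cWRNE and 33.1, 34.2 and 29.5 CPM in COL_Control (0.68 ± 0.20, adjusted p = 0.0263). That call ended with library totals (adjusted p = 0.0886) and without any one of the 6 libraries other than COL_cWRNE replicate 2. Tnfrsf19 was at 90.3, 148 and 145 CPM in COL_cWRNE and 46.8, 44.6 and 31.3 CPM in COL_Control (1.64 ± 0.30). Olfm4, a secreted glycoprotein in this list, was abundant in the MG_Control cultures in Matrigel, at 3240, 3930 and 4270 CPM. It was low in both collagen groups, at 149, 52.1 and 139 CPM in COL_cWRNE and 148, 103 and 207 CPM in COL_Control (adjusted p = 0.754). With library totals, with limma on TPM, and without COL_Control replicate 2 or replicate 3, the stem cell genes called higher were 3 rather than 6. On only the 6 libraries the genes called lower were 7 rather than 4.

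Interferon response genes had the largest median of the 40 lists, at 2.38. Type I and III interferons act through a transcription factor complex that holds IRF9 and binds a short element in the promoters of antiviral genes. Of 26 tested members 20 were called higher (76.9%) and 0 lower. Irf9 itself was at 41.1, 43.7 and 59.9 CPM in COL_cWRNE and 8.72, 11.2 and 18.1 CPM in COL_Control (1.93 ± 0.22).

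The element's core, read as GAAA, any 2 bases and GAAA again on either strand, was searched in RefSeq promoters (build GRCm38.p6) from 250 bases before to 50 bases after the start. Of 27025 genes with a promoter entry 1079 held it (3.99%). Of the 19 interferon response genes with an entry, called or not, 12 held it (63.2%), which describes the list and not this comparison. The 4 shown are the called members with the smallest adjusted p that hold the core, each given as the 250 bases before the start, 5′ to 3′ on the gene's strand, with the core in capitals. All lie on the minus strand: Oas1a at chr5:120907526-120907775, Isg15 at chr4:156200819-156201068, Bst2 at chr8:71537473-71537722 and Rsad2 at chr12:26456453-26456702. A match is a match of letters and not a measured binding site.
Oas1a: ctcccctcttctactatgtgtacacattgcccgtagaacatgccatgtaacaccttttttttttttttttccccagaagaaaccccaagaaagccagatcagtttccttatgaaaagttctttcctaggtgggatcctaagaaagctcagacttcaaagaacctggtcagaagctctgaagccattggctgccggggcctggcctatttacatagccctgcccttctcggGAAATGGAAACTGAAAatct
Isg15: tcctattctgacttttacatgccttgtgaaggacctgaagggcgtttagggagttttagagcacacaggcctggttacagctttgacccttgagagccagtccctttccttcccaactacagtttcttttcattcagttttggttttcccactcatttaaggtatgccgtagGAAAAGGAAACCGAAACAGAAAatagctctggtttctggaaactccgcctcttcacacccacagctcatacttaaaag
Bst2: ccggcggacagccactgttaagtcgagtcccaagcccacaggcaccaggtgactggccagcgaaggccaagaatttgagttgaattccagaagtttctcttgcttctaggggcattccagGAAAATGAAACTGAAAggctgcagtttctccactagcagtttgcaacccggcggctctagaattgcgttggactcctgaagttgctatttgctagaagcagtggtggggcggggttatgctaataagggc
Rsad2: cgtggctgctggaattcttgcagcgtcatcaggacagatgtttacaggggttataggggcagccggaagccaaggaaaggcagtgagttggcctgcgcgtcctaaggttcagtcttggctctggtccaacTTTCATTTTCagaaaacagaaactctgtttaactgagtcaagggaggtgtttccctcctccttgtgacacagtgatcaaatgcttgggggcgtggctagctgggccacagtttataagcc

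Oas1a, a sensor of double-stranded RNA with 2 overlapping cores close to its start, was at 50.0, 45.1 and 65.7 CPM in COL_cWRNE and 9.11, 15.2 and 13.7 CPM in COL_Control (2.08 ± 0.25, adjusted p = 3.63e-05). Isg15, a ubiquitin-like antiviral protein with 3 overlapping cores, was at 12.0, 9.44 and 21.1 CPM in COL_cWRNE and 1.15, 1.18 and 1.99 CPM in COL_Control (3.30 ± 0.46, adjusted p = 0.000146). Bst2, tetherin, which holds budding virus at the membrane, was at 46.3, 37.0 and 51.6 CPM in COL_cWRNE and 24.3, 16.6 and 20.0 CPM in COL_Control (1.15 ± 0.20). The 3 COL_cWRNE libraries lay above the 3 COL_Control libraries for each. Rsad2 (viperin) was at 14.4, 15.3 and 24.4 CPM in COL_cWRNE and 0.573, 1.73 and 1.96 CPM in COL_Control (3.67 ± 0.67). Ifi27, a small interferon-induced mitochondrial membrane protein, rose by 2.41 ± 0.24.

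Of the 26 members, 24 were highest in replicate 3 within COL_cWRNE. In VIL, which shared the medium, Isg15 was at 1.28, 1.70 and 3.71 CPM, near COL_Control. This is a single gene and does not stand for the list in VIL. Zbp1, another interferon-induced gene, had at least 3.04 CPM in all 6 libraries with cWRNE, VIL included. It had at most 0.529 CPM in the other 12 libraries of the series. The summed level of immune cell markers was 51.0 to 68.5 CPM in COL_cWRNE and 11.2 to 17.8 CPM in COL_Control, with 2 of 9 tested markers called, Cd68 (2.32 ± 0.44) and Csf1r (3.80 ± 0.56). Of the 15 markers listed, 7 were at 0 in all 6 libraries, Ptprc, Adgre1 and Tyrobp among them. Their part in the interferon result was not tested. With only genes of at least 10 CPM in 3 libraries kept, 13 interferon genes were called, and 14 to 17 when one library was left out.

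**Figure D4:**
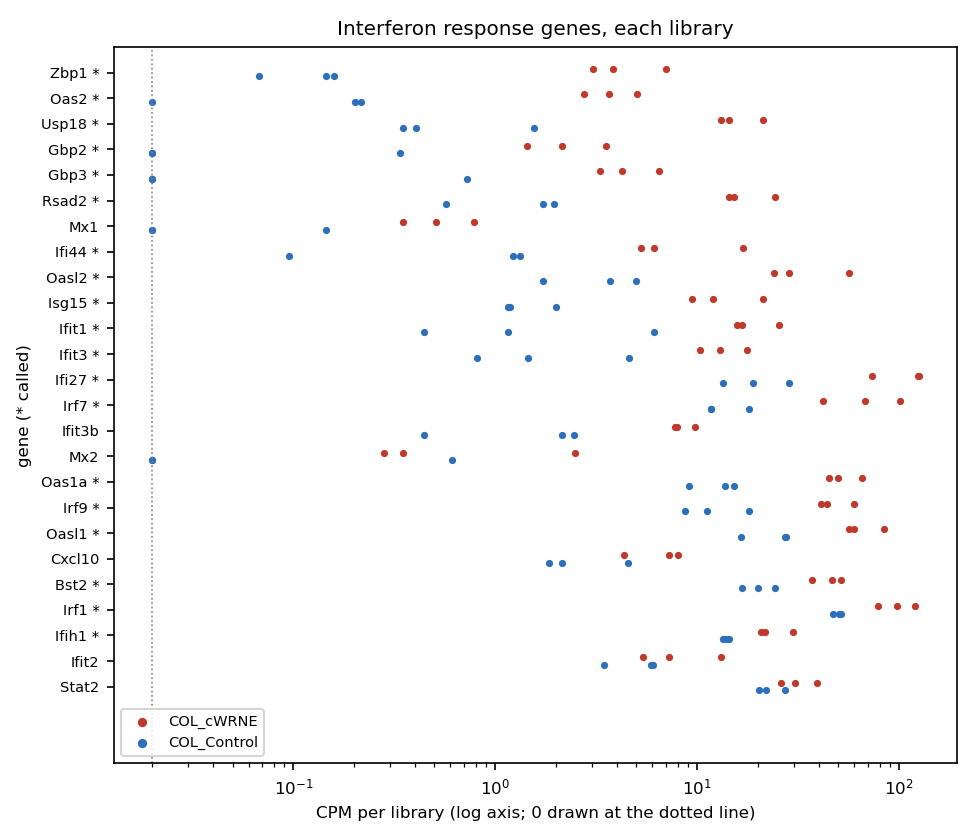
CPM per library (horizontal axis, log scale, with 0 drawn at the dotted line) of tested interferon response genes, ordered by log2 fold change, with COL_cWRNE in red above COL_Control in blue and called genes starred. For Oas1a the COL_cWRNE libraries sit at 45.1 to 65.7 CPM and the COL_Control libraries at 9.11 to 15.2 CPM.

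Of 18 MHC and antigen presentation genes 5 were higher (27.8%) and 1 lower. Psmb8, an immunoproteasome subunit, rose by 1.91 ± 0.28 and Cd74, the MHC class II chaperone, by 2.64 ± 0.63, while H2-DMa, which loads class II peptides, fell by 1.43 on the log2 scale (SE 0.37). The higher count was 3 without COL_cWRNE replicate 3 or COL_Control replicate 1, and H2-DMa lost its call without COL_cWRNE replicate 2 or COL_Control replicate 3. Of 20 NF-kB and inflammation genes 7 were higher (35.0%) and 1 lower, and none was lower without COL_cWRNE replicate 2, COL_cWRNE replicate 3, COL_Control replicate 1 or COL_Control replicate 2. Tnfaip3, a feedback inhibitor of NF-kB, was at 121, 151 and 109 CPM in COL_cWRNE and 42.0, 32.4 and 27.8 CPM in COL_Control (1.90 ± 0.22). The chemokine gene Cxcl16 rose by 1.22 ± 0.23. Duoxa2, which matures the hydrogen peroxide source of the gut surface, rose by 1.81 ± 0.38.

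Enteroendocrine genes had 9 of 24 members lower (37.5%) and 3 higher (12.5%), with a median of -1.01. Gcg, the precursor of glucagon-like peptides, was at 3.56, 4.48 and 1.75 CPM in COL_cWRNE and 26.1, 18.2 and 18.6 CPM in COL_Control (-2.68 ± 0.40, adjusted p = 0.000274). Gip, the incretin of K cells, was at 8.73, 5.74 and 3.98 CPM in COL_cWRNE and 61.7, 21.7 and 40.4 CPM in COL_Control (-2.75 ± 0.51, adjusted p = 0.00136). Sst (somatostatin) was at 0.489, 0.125 and 0.337 CPM in COL_cWRNE, against 8.15, 4.43 and 10.6 CPM in COL_Control (-4.61 ± 0.51), and Tac1, the substance P precursor, fell by 1.64 on the log2 scale (SE 0.29). Chga, the general granule protein, was at 18.1, 15.1 and 11.7 CPM in COL_cWRNE and 25.7, 15.7 and 19.3 CPM in COL_Control and was not called (adjusted p = 0.695). Cpe, a prohormone-processing enzyme also made outside endocrine cells, rose by 2.11 ± 0.35. The lower count was 4 without COL_cWRNE replicate 3 and 5 without COL_cWRNE replicate 2. In these bulk libraries, fewer cells of a type and less RNA per cell cannot be told apart.

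Paneth genes had 2 of 20 members higher (10.0%) and 0 lower. The 2 were Mmp7, the protease that activates defensins, at 821, 664 and 684 CPM in COL_cWRNE and 236, 134 and 139 CPM in COL_Control (2.09 ± 0.23), and Nupr1, a stress-response chromatin protein (2.93 ± 0.27, adjusted p = 7.81e-06). Lyz1, the lysozyme of Paneth granules, was at 1010, 557 and 535 CPM in COL_cWRNE and 1620, 1290 and 1680 CPM in COL_Control, without overlap but not called (-1.13 ± 0.54, adjusted p = 0.163). Fitted on only the 6 libraries it was called (adjusted p = 0.00422), and the Paneth list then had 7 higher and 2 lower. Reads of the near-identical defensin genes of this list may be split among them by the counting.

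Goblet genes had 4 of 16 higher (25.0%) and 1 lower, while only 4 of the 16 had a log2 fold change above 0 and the median was -0.23. Their summed level was 969 to 1260 CPM in COL_cWRNE and 1610 to 1990 CPM in COL_Control. The lower count was 4 on only the 6 libraries and 5 without the VIL libraries. Muc2, the main gel mucin, was at 18.7, 18.9 and 13.5 CPM in COL_cWRNE and 18.8, 15.7 and 24.9 CPM in COL_Control (adjusted p = 0.792). Fcgbp, a mucus-binding protein, was at 161, 179 and 185 CPM in COL_cWRNE and 439, 729 and 652 CPM in COL_Control (-1.79 ± 0.40, adjusted p = 0.00536). Zg16, a goblet lectin, and Sytl2, a granule docking protein, rose by 2.55 ± 0.46 and 1.55 ± 0.19. Tuft genes had 2 of 15 higher (13.3%), near the share of all genes. Dclk1, their usual marker, was at 2.48, 3.26 and 3.03 CPM in COL_cWRNE and 3.15, 3.42 and 2.97 CPM in COL_Control (adjusted p = 0.898), while Avil, the actin-binding protein advillin, was at 62.3, 77.6 and 52.1 CPM in COL_cWRNE and 7.74, 4.03 and 7.35 CPM in COL_Control (3.33 ± 0.35).

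Fabp1, the fatty acid carrier of the proximal gut, was at 13.5, 17.7 and 11.7 CPM in COL_cWRNE and 35.1, 231 and 298 CPM in COL_Control (-3.72 ± 0.95, adjusted p = 0.0126). The low COL_Control value was replicate 1. Its call ended without COL_cWRNE replicate 1 (adjusted p = 0.0529) and without COL_cWRNE replicate 3 (0.0505). Apoa4, a chylomicron apolipoprotein, was at 1.61, 1.35 and 0.876 CPM in COL_cWRNE and 11.1, 10.8 and 25.8 CPM in COL_Control (-3.63 ± 0.65). In MG_Control Apoa4 stood at 492, 372 and 340 CPM, far above both collagen groups.

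Of 29 absorptive enterocyte genes 7 were lower (24.1%) and 1 higher (3.45%). Anpep, a brush border peptidase, was at 9.60, 9.12 and 14.7 CPM in COL_cWRNE and 38.6, 34.3 and 57.6 CPM in COL_Control (-1.97 ± 0.23, adjusted p = 3.63e-05), and the peptidase subunit Mep1b fell by 1.31 on the log2 scale (SE 0.28). Alpi, intestinal alkaline phosphatase, was at 84.9, 118 and 109 CPM in COL_cWRNE and 14.9, 109 and 136 CPM in COL_Control (adjusted p = 0.842). Krt20, a keratin of differentiated cells, had 0.62 ± 0.38 and Apoa1, an apolipoprotein, -1.04 ± 0.53, and neither was called, though both were once the VIL libraries were left out. The separate list of villus tip genes leaned the other way. Of its 9 tested members 4 were higher (44.4%) and 1 lower (11.1%), with a median of 0.22. The summed level of that list was 1260 to 1470 CPM in COL_cWRNE and 525 to 744 CPM in COL_Control. Its higher count was 2 without COL_Control replicate 3. Ces2e and Aadac, esterases of the endoplasmic reticulum, and Otc, the mitochondrial urea cycle enzyme, were among the 12 genes with the largest fall, as were Gimd1 and Papln. Aadac was not called without any one of the 6 libraries other than COL_Control replicate 1. Papln, a proteoglycan-like matrix glycoprotein, was at 4.71, 4.95 and 10.3 CPM in COL_cWRNE and 28.2, 44.5 and 41.1 CPM in COL_Control. Otc was at 5.94, 3.86 and 8.49 CPM in COL_cWRNE and 20.2, 46.0 and 54.7 CPM in COL_Control (-2.73 ± 0.74). Bmp3, a bone morphogenetic protein family member, was at 2.55, 1.82 and 0.607 CPM in COL_cWRNE and 10.9, 11.1 and 11.0 CPM in COL_Control (-2.73 ± 0.35).

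PPAR nuclear receptors sense fatty acids and switch on their oxidation. Of 26 tested PPAR target and fatty acid oxidation genes 13 were lower (50.0%) and 3 higher (11.5%), with a median of -0.44. Acot1, a fatty acyl-CoA thioesterase, was at 5.52, 4.64 and 6.10 CPM in COL_cWRNE and 27.8, 45.1 and 53.6 CPM in COL_Control (-2.96 ± 0.40, adjusted p = 0.000117). Creb3l3, a lipid-regulating transcription factor of gut and liver, fell by 2.67 on the log2 scale (SE 0.45). The 3 higher members all encode lipid droplet proteins. Plin2 was at 309, 331 and 209 CPM in COL_cWRNE and 57.1, 53.4 and 66.7 CPM in COL_Control (2.26 ± 0.24, adjusted p = 1.98e-05), Cidec rose by 1.79 ± 0.20 and Cidea by 2.64 ± 0.63. Pdk4, a kinase that spares glucose, and Cyp4a10, a fatty acid hydroxylase, had no count in COL_cWRNE and at most 3.15 CPM in COL_Control. Cyp4a10 lost its call with limma on TPM and without COL_cWRNE replicate 1 or replicate 2, and Pdk4 with limma on log2(TPM + 1). The lower count was 8 without any one COL_cWRNE library or COL_Control replicate 3.

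**Figure D5:**
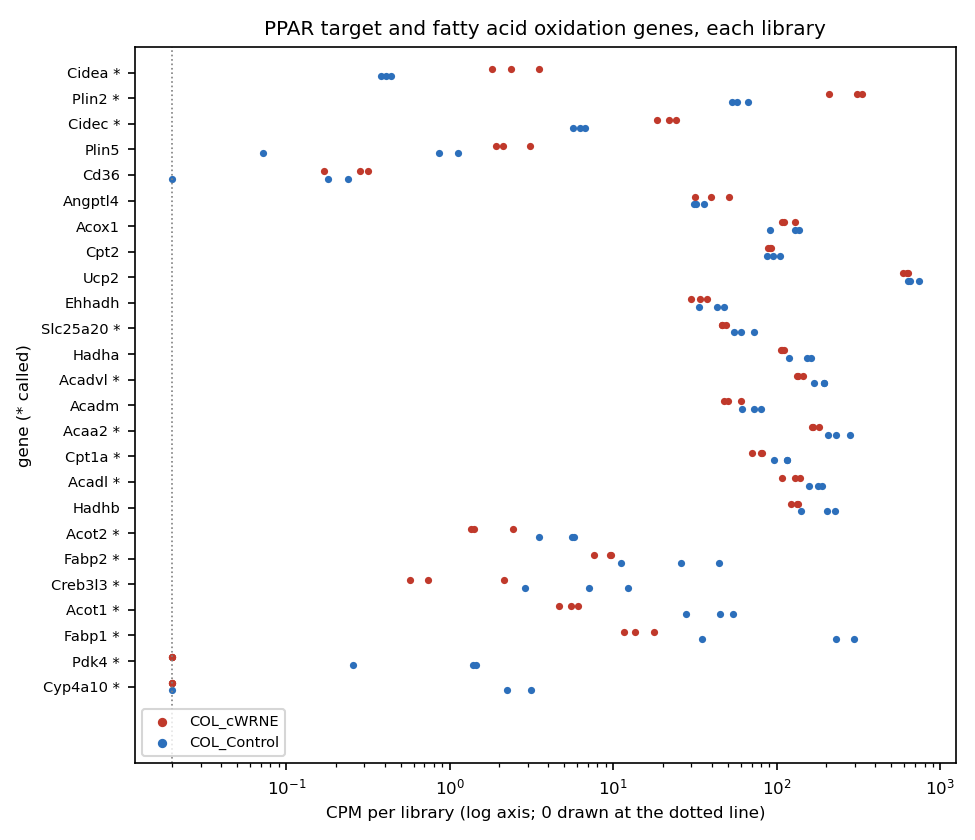
CPM per library (horizontal axis, log scale, with 0 drawn at the dotted line) of tested PPAR target and fatty acid oxidation genes, ordered by log2 fold change, with COL_cWRNE in red above COL_Control in blue and called genes starred. Plin2 stands at 209 to 331 CPM in COL_cWRNE and 53.4 to 66.7 CPM in COL_Control, while Acot1 and Fabp1 near the foot are lower in COL_cWRNE.

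Cholesterol synthesis genes had 7 of 24 lower (29.2%) and 0 higher, with a median of -0.46. Dhcr7 and Tm7sf2, late sterol reductases, fell by 1.08 (SE 0.25) and 1.04 (SE 0.22) on the log2 scale. Hmgcs1, at the pathway's entry, was at 510, 584 and 554 CPM in COL_cWRNE and 440, 681 and 599 CPM in COL_Control and overlapped (adjusted p = 0.89). Of 17 fatty acid synthesis genes 4 were lower (23.5%; the count was 2 without COL_Control replicate 2) and 2 were higher. Fasn, fatty acid synthase, fell by 0.65 on the log2 scale (SE 0.14), and Scd1, the stearoyl desaturase, had 0.00 ± 0.38. Me1, which supplies NADPH, was at 337, 398 and 279 CPM in COL_cWRNE and 90.5, 104 and 95.2 CPM in COL_Control (1.81 ± 0.17). The cholesterol count was 16 on only the 6 libraries and 15 with library totals, and 2 without COL_cWRNE replicate 3, COL_Control replicate 2 or COL_Control replicate 3. Without COL_cWRNE replicate 1 or replicate 2 it was 3.

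All 25 S phase and DNA replication genes had negative log2 fold changes, 8 were called lower (32.0%) and the median was -0.51. Slbp, which processes histone mRNA, was at 105, 94.9 and 122 CPM in COL_cWRNE and 172, 176 and 182 CPM in COL_Control (-0.72 ± 0.16, adjusted p = 0.0061), and Tyms, thymidylate synthase, the target of 5-fluorouracil, was at 71.8, 65.5 and 72.3 CPM in COL_cWRNE and 156, 118 and 133 CPM in COL_Control (-0.96 ± 0.26), a call that ended without COL_cWRNE replicate 2 or COL_Control replicate 1. All 21 G2/M genes were also negative, with a median of -0.46, and 1 was called lower (4.76%), near the share of all genes. It was Bub1, a spindle checkpoint kinase (-0.75 ± 0.23, adjusted p = 0.0291). Mki67, the Ki-67 proliferation antigen, was at 94.9, 80.2 and 129 CPM in COL_cWRNE and 176, 146 and 149 CPM in COL_Control (-0.63 ± 0.27, adjusted p = 0.122). The counts moved strongly with the fit. On only the 6 libraries 24 S phase and 14 G2/M genes were called lower, Mki67 among them (adjusted p = 0.016). With all groups and 1 library left out, the S phase count was 1 to 4 and lowest without COL_cWRNE replicate 2, and the G2/M count was 0 in 5 of the 6 omissions.

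p53 target genes had 13 of 28 higher (46.4%) and 2 lower (7.14%), with a median of 0.56. Cdkn1a, the cell cycle inhibitor p21, was at 407, 348 and 301 CPM in COL_cWRNE and 210, 151 and 181 CPM in COL_Control (0.96 ± 0.22, adjusted p = 0.00594). Plk2, a stress-induced kinase, rose by 1.53 ± 0.24, and Pmaip1 and Phlda3, promoters of apoptosis, by 1.10 ± 0.21 and 1.01 ± 0.20. The 2 lower members were not called without COL_cWRNE replicate 1, COL_cWRNE replicate 3 or COL_Control replicate 1. The higher count was 8 with library totals, 6 with limma on log2(TPM + 1), 8 without COL_cWRNE replicate 1, 7 without COL_cWRNE replicate 2 and 8 without COL_Control replicate 3.

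Aryl hydrocarbon receptor and NRF2 target genes had 14 of 19 higher (73.7%) and 0 lower, with a median of 1.03. Cyp1b1, an oxidase induced by the aryl hydrocarbon receptor, was at 249, 357 and 225 CPM in COL_cWRNE and 40.4, 41.6 and 14.0 CPM in COL_Control (3.11 ± 0.49, adjusted p = 0.000416). Cyp1a1, the most used readout of that receptor, was at 6.39, 8.65 and 4.79 CPM in COL_cWRNE and 6.08, 8.36 and 9.93 CPM in COL_Control and was not called (adjusted p = 0.772). Hmox1, heme oxygenase 1, an NRF2 target, was at 85.5, 82.0 and 88.6 CPM in COL_cWRNE and 25.9, 17.2 and 21.8 CPM in COL_Control (1.98 ± 0.40). The glutathione genes Gclm and Slc7a11 and the peroxiredoxin repair gene Srxn1 rose by 1.03 ± 0.18, 1.52 ± 0.26 and 0.93 ± 0.15. Unfolded protein and integrated stress response genes had 10 of 21 higher (47.6%) and 0 lower, with Trib3, a pseudokinase induced by ATF4, at 1.42 ± 0.32 and Xbp1, a driver of the secretory apparatus, at 0.55 ± 0.11. That count was 5 without COL_cWRNE replicate 3 or COL_Control replicate 3 and 6 without COL_Control replicate 2.

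Retinoid handling genes had 7 of 23 higher (30.4%) and 3 lower (13.0%). Stra6, the cell surface receptor for the plasma retinol carrier, was at 251, 474 and 244 CPM in COL_cWRNE and 8.85, 5.72 and 2.57 CPM in COL_Control (5.81 ± 0.54, adjusted p = 1.43e-05). It had no count in MG_Control. Aldh1a3, which makes retinoic acid, was at 72.2, 102 and 76.0 CPM in COL_cWRNE and 3.31, 1.46 and 1.23 CPM in COL_Control (5.37 ± 0.77). Rdh10, the preceding dehydrogenase, rose by 1.38 ± 0.22. The higher count was 4 without COL_Control replicate 3, and no member was called lower without COL_cWRNE replicate 1, COL_cWRNE replicate 2 or COL_Control replicate 3.

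EGF family genes had 7 of 18 higher (38.9%) and 1 lower, a lower count that was 0 without any one of the 6 libraries other than COL_cWRNE replicate 3. The ligand Areg was at 337, 242 and 304 CPM in COL_cWRNE and 126, 74.1 and 84.2 CPM in COL_Control (1.63 ± 0.27), the ligand Ereg rose by 1.86 ± 0.33 and the receptor Egfr by 1.14 ± 0.27, which was not called without COL_Control replicate 3. Errfi1, which blocks that receptor in feedback, rose by 0.98 ± 0.19. Notch genes had 5 of 18 higher (27.8%), 3 without COL_cWRNE replicate 2 or COL_Control replicate 3, among them the ligand Jag1 at 101, 108 and 94.7 CPM in COL_cWRNE and 36.3, 39.7 and 32.6 CPM in COL_Control (1.49 ± 0.25), the ligand Jag2 (1.05 ± 0.22) and the effector Hes1 (0.60 ± 0.13). BMP genes had 4 of 16 higher (25.0%), with Smad7, an inhibitor of TGF-beta family signals, at 1.45 ± 0.32. The BMP count was 2 with library totals and 2 without any one of the 6 libraries other than COL_Control replicate 1.

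Gastric and Brunner gland genes had 5 of 8 tested members higher. Ctse, the aspartic protease cathepsin E of stomach, was at 134, 170 and 104 CPM in COL_cWRNE and 3.88, 0.914 and 3.08 CPM in COL_Control (5.69 ± 0.73), and Anxa10, a gastric annexin, rose by 2.81 ± 0.36. Of 8 proximal small intestine genes 4 were higher and 1, Fabp1, was lower. Among iron genes, Slc40a1, the iron exporter ferroportin, rose by 1.30 ± 0.23, while Tfrc, the transferrin receptor, had -0.12 ± 0.27 (adjusted p = 0.808). Of 17 metallothionein and zinc transporter genes 2 were higher (11.8%) and 3 lower (17.6%), with a median of 0.24. The higher count was 1 with library totals and without any one of the 6 libraries other than COL_Control replicate 3. Slc30a2, a zinc exporter, rose by 2.53 ± 0.56. Mt1, a metal-binding metallothionein, had 0.12 ± 0.35 (adjusted p = 0.867). The zinc importers Slc39a5, Slc39a8 and Slc39a10 fell by 1.97 (SE 0.45), 1.34 (SE 0.36) and 1.12 (SE 0.23) on the log2 scale. Slc39a8 was not called without COL_cWRNE replicate 1 or COL_Control replicate 2. Glycolysis and hypoxia genes had 5 of 24 higher (20.8%), 2 with library totals and 2 or 3 without any one library other than COL_cWRNE replicate 2, with the kinase Hk1 at 199, 201 and 193 CPM in COL_cWRNE and 93.0, 91.8 and 89.8 CPM in COL_Control (1.11 ± 0.20). Of 17 urea cycle and polyamine genes Ass1 (3.11 ± 0.29), which makes argininosuccinate, and Sat1 (1.49 ± 0.14), which breaks down polyamines, rose, while Otc and Nags, the enzyme that makes the urea cycle's activator, fell. Neither fall was called without COL_cWRNE replicate 2 or COL_Control replicate 3, nor that of Otc without COL_cWRNE replicate 1 or COL_Control replicate 2.

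Markers of other cells were low throughout. Mesenchymal genes summed to 5.06 to 10.3 CPM in COL_cWRNE and 1.96 to 3.98 CPM in COL_Control, with 7 of 15 at 0 in all 6 libraries. Acta2, smooth muscle actin, also a serum response gene, was the one called. It was at 3.18, 4.86 and 3.13 CPM in COL_cWRNE and 0.923, 0.542 and 0.399 CPM in COL_Control. Its call ended without COL_Control replicate 3. Vim (vimentin) was at 0.838, 1.44 and 1.11 CPM in COL_cWRNE and 1.72, 0.542 and 1.92 CPM in COL_Control (adjusted p = 0.809), and Col3a1, Pdgfra and Dcn were at 0 in all 6. The part of such cells in the matrix genes above was not tested. Endothelial genes summed to 3.98 to 5.71 CPM in COL_cWRNE and 0.191 to 0.880 CPM in COL_Control, with Flt1, a VEGF receptor, the one called. Flt1 lost its call without COL_cWRNE replicate 2 or any one COL_Control library.

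Genes with other roles also had large rises. Tnnt2, the cardiac form of troponin T, was at 23.9, 20.1 and 12.9 CPM in COL_cWRNE and 0.0955, 0.203 and 0.0725 CPM in COL_Control (7.21 ± 0.96, adjusted p = 0.000103). Slc28a3, a nucleoside importer, was at 30.0, 64.6 and 36.4 CPM in COL_cWRNE and 0.860, 0.508 and 0.616 CPM in COL_Control (6.03 ± 0.59). Pdlim4, an actin-binding LIM protein, rose by 5.88 ± 0.67. Acsbg1, an acyl-CoA synthetase, was at 13.4, 14.5 and 10.7 CPM in COL_cWRNE and had no count in COL_Control, so it was at least 380-fold higher by the same floor as Dkk2.

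Some genes separated the libraries with cWRNE from all others of the series. These sets also belong to different experiments, so medium and experiment cannot be told apart here either. Of the 55414 genes listed, 19 had all 6 libraries with cWRNE (COL_cWRNE and VIL) at least 5-fold above the highest of the other 12 libraries. In 2 genes they lay at least 5-fold below the lowest. Both counts also required more than 1 CPM in every library of the higher side, and they are given as a description. Spp1 had at least 70.8 CPM in the first set and at most 1.59 CPM in the second, and Fn1 at least 91.7 CPM, against at most 7.83 CPM. Trim29, a keratinocyte and basal cell protein, had at least 18.8 CPM, against at most 0.440 CPM. On the lower side were Sst, at most 0.489 CPM, against at least 4.43 CPM, and Exosc6. Exosc6, an RNA exosome subunit, was listed at 0 in all 6 and at 7.01 to 54.6 CPM in the other 12. Exosc6 overlaps the gene Aars in the GENCODE annotation (vM21), so its counts are uncertain.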

How the data were processed

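RNA of 18 organoid libraries was sequenced after SMART-Seq amplification and Nextera XT library making, per the labels' protocols, a route that does not mark strand, so reads of overlapping genes cannot be told apart. The submitters' processing notes name bcl2fastq 2.20, DRAGEN and the build GRCm39 (mm39). The authors deposited 1 table that gives estimated counts and transcripts per 1000000 (TPM) for each gene, with the TPM of each library summing to about 1000000. Of the nonzero estimated counts 67.8% were whole (tolerance 1e-09). They were rounded to whole numbers for the tests.

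Genes passing filterByExpr (minimum count 10, minimum total 15) were tested with edgeR 4.0.16 (limma 3.58.1, R 4.3.3), quasi-likelihood F-test, TMM scaling, group as the only term, all 18 libraries sharing 1 estimate of the spread (12 residual degrees of freedom), Benjamini-Hochberg adjustment over all genes tested and a threshold of 0.05. Since the filter spans all groups, some tested genes had no count in the 6 libraries. SE is the absolute log2 fold change over the square root of F. Levels are counts per 1000000 (CPM) with TMM scaling. DESeq2 1.42.0, limma-trend on log2(TPM + 1) and log2(TPM + 0.1), other scalings, filters and samples were alternatives. The code was tested on simulated data. Totals ran from 22280427 to 34480406 counts; floors of 3 counts cover counting error only.

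The genes named are, per direction, the 12 with the largest fold change among called genes whose groups do not overlap and whose higher group averages 10 CPM or more (gene models without a name, Y-linked genes and Xist left out), up to 4 called members per list by smallest adjusted p, and a set of markers named whatever their result. Some genes under this rule are not reported here. Rsad2, Bst2, Zbp1, Cldn7, Birc5, Cidea, Pdk4, Cyp4a10, Fzd5, Adgre1, Tyrobp, Col3a1, Pdgfra and Dcn were named after their values were seen. The comparison, the 40 gene lists and the markers were chosen with earlier results of these data known. Of 743 listed genes 739 were matched by symbol and 689 tested. Promoters were matched by symbol for 19 of the 27 interferon response genes. Motif search and figures used Python 3.11.15, pandas 2.3.3 and matplotlib 3.10.9.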

Additional observations from a re-analysis of the deposited data

How the results depend on the processing

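Of 3184 genes called, 2325 were higher (73%) and 859 lower. The split moved with scaling and samples. Library totals gave 1624 higher and 1966 lower (45.2% higher). Only the 6 libraries gave 2578 and 1599 (61.7%), leaving out VIL 2639 and 1840 (58.9%) and keeping genes of at least 10 CPM in 3 libraries 1815 and 1120 (61.8%). DESeq2 gave 2566 and 1357 (65.4%), limma on log2(TPM + 1) 1583 and 1497 (51.4%), and limma on log2(TPM + 0.1) 1552 and 1374 (53%). Asking also for a log2 fold change of 1 or more in size left 1543 genes, 1224 higher and 319 lower. Leaving out 1 library gave 1907 to 2669 calls, 1458 to 2089 higher and 445 to 605 lower. The cause of these moves was not tested. Among the genes named in the text, none that was called in either of the fits compared changed sign under an alternative run. The fits without VIL, and with a block on only the 6 libraries, were chosen after seeing the data.

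Replicate numbers were not taken as pairs, though the values were mixed. The deviations of same-numbered samples from their group means correlated at 0.122, 0.175 and 0.0978. COL_cWRNE replicate 1 correlated best with COL_Control replicate 3 (0.165), while COL_cWRNE replicates 2 and 3 correlated best with their own number. In every group of the series replicate 2 carried 118 to 175 CPM of Y-linked RNA and at most 0.536 CPM of Xist. Whether equal numbers mark shared animals was not tested. With the replicate number as a block, 3235 genes were called, 2358 higher and 877 lower, and on only the 6 libraries 4421, with 2720 higher and 1701 lower. Of the genes named in the report, the block on all 18 libraries took Lgr5 out of the calls (adjusted p = 0.0575).

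Depth limited genes with no count in one group, whose folds are given as lower bounds. COL_Control replicate 3 carried both Y-linked RNA and Xist, and the calls without it numbered 1907.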

Other observations

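Beside the genes above, a few well-expressed groups stood high among the genes ranked next by fold change, chosen here after their values were seen. All of them passed the edgeR adjusted p of 0.05. Among them were 2 enzymes of prostaglandin E2 synthesis. Ptgs2 (cyclooxygenase 2) was at 115, 157 and 64.6 CPM in COL_cWRNE and 6.27, 4.84 and 1.34 CPM in COL_Control (log2 fold change 4.75 ± 0.69, edgeR adjusted p = 0.000202). Ptges, the prostaglandin E synthase, was at 140.0, 143 and 148 CPM in COL_cWRNE and 9.61, 4.98 and 6.09 CPM in COL_Control (4.38 ± 0.62, edgeR adjusted p = 0.000168). The 2 chains of the interleukin 18 receptor were also higher, with Il18r1 at 5.47 ± 0.67 and Il18rap at 4.78 ± 0.58. Krt4, a keratin of stratified epithelium, was at 239, 275 and 156 CPM in COL_cWRNE and 14.9, 9.34 and 4.35 CPM in COL_Control (4.55 ± 0.41). The ligand Wnt7a, outside the lists used, was at 47.8, 64.6 and 29.1 CPM in COL_cWRNE and 1.78, 0.812 and 0.688 CPM in COL_Control (5.41 ± 0.67).

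Among the lower genes of that ranking, Naip5 and Naip6, sensors of bacterial proteins that are near-identical copies whose reads may be split between them, had -1.61 ± 0.24 and -1.95 ± 0.26. Mttp, which loads lipid onto apolipoprotein B, was at 52.0, 56.3 and 49.4 CPM in COL_cWRNE and 87.3, 225 and 243 CPM in COL_Control (-1.81 ± 0.52, edgeR adjusted p = 0.0229), and was not called without any one of the 6 libraries other than COL_Control replicate 1. Slc3a1, a chain of the cystine transporter, was at 7.30, 6.52 and 10.3 CPM in COL_cWRNE and 16.0, 37.5 and 47.4 CPM in COL_Control (-2.07 ± 0.49).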
